A study of Mus musculus with 8 samples.

Results

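The names described here are 7 of the 566 mouse microRNA (miRNA) rows of an nCounter panel: mmu-miR-720, mmu-miR-1224, mmu-miR-1944, mmu-miR-2134, mmu-miR-2135, mmu-miR-2141 and mmu-miR-714. They were chosen by name, as a mirtron and as entries whose standing as true miRNAs is doubtful, and they were selected on this contrast as well, since the difference between Kupffer cells and monocytes in these same samples was known when the names were picked. All 7 were found in the table. The panel was read in 4 samples of Kupffer cells from liver (KC), which are its resident macrophages, and in 4 samples of monocytes from blood (MNC), all of the Balb/C strain and with no treatment named in the labels. Each sample was a pool of sorted cells from 5 mice by the labels (4 or 5 in the study's nCounter methods), was enriched with magnetic beads against F4/80 by the study's methods, and entered the assay as 100 ng of total RNA. The age and sex of the mice are not given in the labels. In pooled bulk samples, fewer cells of a type and less RNA per cell cannot be told apart.

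A typical miRNA is cut from a hairpin transcript by the nuclease Drosha and then by Dicer, and the mature strand guides Argonaute to messenger RNAs that match its seed. A mirtron skips the Drosha cut, because its hairpin is a short intron whose ends are made by splicing. miR-720 is known as a fragment of threonine transfer RNA, and several names numbered close to mmu-miR-2134 have been traced to ribosomal RNA, so their standing as regulators is disputed. The nCounter assay joins a tag to each short RNA by ligation, captures the product with a probe that carries a colour code, and counts the codes one molecule at a time.

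Of the 7 names, only mmu-miR-1224 had a hairpin and mature sequences in the RefSeq table for GRCm38.p6, so only its sequences are shown. The Mir1224 hairpin lies at chr16:20604452-20604536 on the plus strand, spans 85 bases and falls within the span of the protein-coding gene Vwa5b2 (chr16:20589428-20605378). Its outermost bases, in capitals, are GU and AG, the pair that marks the ends of a spliced intron.
Mir1224 hairpin: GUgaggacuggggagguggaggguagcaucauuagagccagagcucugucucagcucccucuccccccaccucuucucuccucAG
Both mature strands reach an end of the hairpin, and the capitals in them mark the seed (bases 2 to 8).
mmu-miR-1224-5p: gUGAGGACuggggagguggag
mmu-miR-1224-3p: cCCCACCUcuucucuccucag
The 5p strand begins on the first base of the hairpin and is 61.9% G, and the 3p strand ends on its last base. No other mature mouse miRNA in the table shares either seed. Which strand the probe of the panel reads is not given in the sources used here. The panel holds 4 further mirtron names, and 3 of their hairpins carry the same ends, as shown here for comparison with Mir1224.
Mir877 hairpin: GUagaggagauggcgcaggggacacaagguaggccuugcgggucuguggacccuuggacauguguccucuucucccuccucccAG
Mir1981 hairpin: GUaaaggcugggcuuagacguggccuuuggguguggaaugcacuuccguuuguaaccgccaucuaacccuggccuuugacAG
Mir1982 hairpin: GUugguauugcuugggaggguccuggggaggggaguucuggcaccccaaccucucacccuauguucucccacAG
The annotated hairpin of Mir702 does not have these ends. Over all 997 mouse hairpins of the table, 30 (3.01%) start with GU and end with AG.

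The deposited signal is the barcode count times 1 factor per sample, and that factor set the geometric mean of the 4 messenger RNA rows (Actb, B2m, Gapdh, Rpl19) to the same value in every sample. The factor was 1.52 to 1.76 in KC and 0.589 to 1.06 in MNC, so equal counts became unequal signals. The total over mouse rows was 8669 to 10194 counts in KC and 5374 to 10568 in MNC, with MNC 1 the shallowest, and the median row held only 7 to 14 counts. The 8 negative control rows averaged 9.25 to 16.5 counts, and the highest of them in a sample reached 17 to 35. The positive ligation controls, which report how well the tag was joined, reached 2161 ± 687 counts in KC against 917 ± 279 in MNC (SD, n = 4 per group, geometric mean of 3 rows), and so moved with the cell type. The cell type labels can be checked only in part with miRNAs. The blood cell miRNA mmu-miR-142-5p was above the highest negative control in all 8 samples, mmu-miR-223, abundant in myeloid cells, was above it in none, and the hepatocyte miRNA mmu-miR-122 was above it in all KC and no MNC sample.

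Levels were first set against the negative controls, on the barcode counts, because the negative controls carry no factor. Above background means here that a count exceeded every negative control of the same sample. In KC 5 of the 7 names were above background in all 4 samples, namely mmu-miR-1944, mmu-miR-720, mmu-miR-2141, mmu-miR-1224 and mmu-miR-714. Over all 566 mouse rows 4.42% were. In MNC mmu-miR-1944 and mmu-miR-720 were above background in all 4 samples, against 2.3% of all mouse rows. The names therefore fell into a pair well above background in both cell types, 3 that were above it in KC and only in some or no MNC samples, and a pair, mmu-miR-2134 and mmu-miR-2135, that stayed at background, except mmu-miR-2134 in KC 1.

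**Figure D1:**
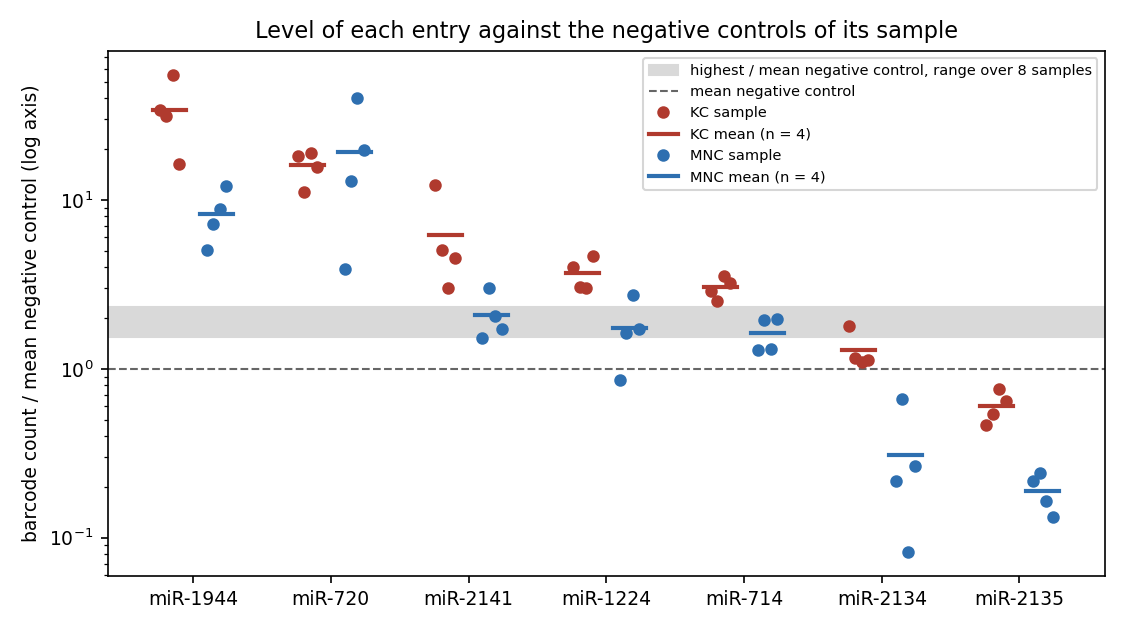
Barcode count of each name divided by the mean of the 8 negative controls of the same sample (log axis), with 1 point per sample and a bar at the group mean (n = 4 KC and 4 MNC); the grey band is the range over samples of the highest negative control. miR-1944 and miR-720 lie above the band in all 8 samples, while miR-2135 lies below the mean negative control in all 8.

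mmu-miR-1944 had 442, 462, 657 and 202 counts in KC 1 to KC 4. In MNC 1 to MNC 4 it had 47, 119, 107 and 183 counts. The 4 KC values lay above the 4 MNC values, with KC 4 the closest to them. It held rank 2 or 3 by count among the 566 mouse rows in every KC sample and rank 5 in every MNC sample, and its count was 16.3 to 55.3 times the mean negative control in KC and 5.08 to 12.1 times in MNC.

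mmu-miR-720, the entry from transfer RNA, had 235, 165, 225 and 195 counts in KC 1 to KC 4. The monocyte samples, in the same order, had 36, 215, 489 and 298. The monocyte values enclosed all 4 KC values, from the lowest of all 8 in MNC 1 to the highest in MNC 3. The spread of its signal was 12.2% of the mean in KC and 89.8% in MNC (SD over mean, n = 4 each). It was among the 8 highest mouse rows in every sample.

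mmu-miR-2141 had 159, 75, 36 and 56 counts in KC 1 to KC 4. Its counts in MNC 1 to MNC 4 were 14, 50, 25 and 26. Counts in the groups overlapped, since KC 3 lay under MNC 2, and KC 1 was the highest by far. Of the monocyte samples only MNC 2 and MNC 3 were above background.

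The mirtron mmu-miR-1224 had 52, 45, 36 and 58 counts in KC 1 to KC 4. MNC 1 to MNC 4 held 8, 27, 33 and 26 counts of it. The groups did not overlap on counts, and MNC 3 was the only monocyte sample above background, with a count of 33 against a highest negative control of 21. The count was 3.03 to 4.69 times the mean negative control in KC and 0.865 to 2.72 times in MNC.

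mmu-miR-714 had 37, 37, 42 and 40 counts in KC 1 to KC 4, the tightest set of the 7, with a spread of 8.63% of the mean on the signal. Monocytes had 12, 32, 16 and 30 counts, none above the highest negative control. In KC it cleared that limit by little, most narrowly in KC 2, where it had 37 counts against 31. Against a second limit, the highest of the 36 rows for viral, plant and worm miRNAs, which was above the highest negative control in KC 1 and KC 4 and below it in KC 2 and KC 3, it passed in 3 of 4 KC samples, while mmu-miR-1944, mmu-miR-720, mmu-miR-2141 and mmu-miR-1224 passed in all 4.

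mmu-miR-2134 had 23, 17, 13 and 14 counts in KC 1 to KC 4. It had 2, 11, 1 and 4 counts in MNC 1 to MNC 4, and only KC 1 was above background. mmu-miR-2135 had 6, 8, 9 and 8 counts in KC 1 to KC 4 and 2, 4, 2 and 2 in MNC 1 to MNC 4, so it stayed below the mean negative control in all 8 samples. At these levels counting error is wide. The exact Poisson 95% interval of a count of 8 runs from 3.45 to 15.8 and that of a count of 2 from 0.242 to 7.22, and these intervals cover counting error only.

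Summed over the 7 names, the share of all mouse counts was 10.2% in KC 1 (Wilson 95% interval 9.58 to 10.8), 8.38% in KC 2 (7.84 to 8.95), 11.7% in KC 3 (11.1 to 12.4) and 5.62% in KC 4 (5.19 to 6.09). In MNC 1 to MNC 4 it was 2.25% (1.89 to 2.68), 4.33% (3.96 to 4.74), 7.72% (7.18 to 8.30) and 5.69% (5.25 to 6.16). These intervals cover counting error only, and the total over mouse rows includes many rows at background. The groups overlapped, with KC 4 below MNC 3 and MNC 4. Most of this share came from mmu-miR-720 and mmu-miR-1944, which together made up 69.3% to 86.6% of it in KC and 68.6% to 88.6% in MNC.

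The question of the study, in which miRNAs the macrophages of the liver differ from circulating monocytes, was put to the deposited signal. Differences below are KC minus MNC in the group means of log2(signal + 1), with the standard error (SE) of the limma fit over all 566 mouse rows. This scale understates the change of low rows. Since the names were selected on this contrast, their values are a description. They were part of the fit over all rows, but its p-values are no evidence for them and are not printed. Almost the whole panel was higher in KC on this scale: 551 of 566 rows had a positive difference. The median of all rows was 0.94, and the middle of the distribution ran from 0.59 to 1.17 (quartiles). In every sample the median row held fewer counts than the mean negative control, so this median is mainly that of rows at background. On barcode counts, without the factor, it was 0.00. Of all rows, 140 (24.7%) passed an adjusted p of 0.05 as higher in KC and 0 as lower (limma with Benjamini-Hochberg adjustment). At an unadjusted p under 0.05, 307 were higher and 0 lower. The study's methods took fold changes and p-values of its nCounter mRNA panel from nSolver. They name a Mann-Whitney test for relative expression levels, flow cytometry and Western blots. Run here in its exact form on the panel, the Mann-Whitney test called 0 after the same adjustment. Its smallest p with 4 against 4 samples is 0.0286, which 209 rows reached and which became 0.0774 after adjustment, so that count reflects the size of the groups. Because almost the whole panel was shifted, each difference is also given less the median of all rows.

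mmu-miR-1944 had a signal of 674, 812, 1086 and 314 in KC 1 to KC 4 and of 27.7, 86.9, 113 and 146 in MNC 1 to MNC 4. No values overlapped, and the difference was 3.03 (SE 0.64), or 2.09 above the median of all rows. By size this difference had rank 4 of 566.

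mmu-miR-2141 had a signal of 242, 132, 59.5 and 86.9 in KC and of 8.25, 36.5, 26.5 and 20.8 in MNC. The groups were apart on the signal, although they overlapped on counts, and the difference was 2.42 (SE 0.48), or 1.48 above the median. In MNC 1 and MNC 4 the listed value is a level of background.

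mmu-miR-1224 had a signal of 79.3, 79.1, 59.5 and 90.0 in KC and of 4.72, 19.7, 34.95 and 20.8 in MNC. The groups were apart, and the listed values differed by 2.14 (SE 0.47), or 1.20 above the median. Only 1 of the 4 monocyte samples was above background, so in the other 3 the listed value is a level of background.

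mmu-miR-714 had a signal of 56.4, 65.0, 69.4 and 62.1 in KC and of 7.07, 23.4, 16.9 and 24.0 in MNC. Its difference was 1.90 (SE 0.42), or 0.96 above the median. Because no monocyte sample was above background, MNC holds only a bound. With each monocyte sample at its highest negative control, KC came out 3.16-fold higher on the signal and 1.51-fold higher on counts. With samples scaled to the same total over mouse rows, the fold was 1.34. These folds depend on the scaling and are no firm lower limits, since the KC counts also hold background and counting error. In KC 2 the lower Poisson limit of the 37 counts was 26.1, below the highest negative control of 31.

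mmu-miR-720 had a signal of 358, 290.1, 372 and 303 in KC and of 21.2, 157, 518 and 238 in MNC. KC lay within the range of MNC. Its difference was 1.19 (SE 0.72), or 0.25 above the median, which gave it rank 128 of 566. Without MNC 1 the value relative to the median turned to -0.37.

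mmu-miR-2134 had a signal of 35.1, 29.9, 21.5 and 21.7 in KC and of 1.18, 8.03, 1.06 and 3.19 in MNC, and mmu-miR-2135 had 9.15, 14.1, 14.9 and 12.4 in KC and 1.18, 2.92, 2.12 and 1.60 in MNC. The listed values differed by 2.93 (SE 0.50) and 2.22 (SE 0.43). No fold is read from them, as these counts were mostly or wholly at background.

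As deposited, 6 of the 7 names, all but mmu-miR-720, were among the 24.7% of mouse rows that passed the adjusted threshold as higher in KC, and none passed as lower. Scaled to the same total, 3 of the names were among 9 rows called out of 566. The positive controls gave 1 of 5 called rows and the 100 highest rows 1 of 7. On barcode counts 1 row was called and with the ligation controls 261, of which 258 were lower in KC, and none of the 7 names was among them. For the same 6 names the groups did not overlap on the signal, as they did not for 36.9% of all mouse rows. On the barcode counts 5 of the 7 did not overlap, against 2.3% of all rows, and mmu-miR-720 and mmu-miR-2141 overlapped; mmu-miR-2134 and mmu-miR-2135, mostly or wholly at background, are among the 5. The median difference of the 7 names was 2.22, which is the value of mmu-miR-2135 itself, against 0.94 for all rows. Nothing is read from these counts or this median, since the rule used this contrast.

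**Figure D2:**
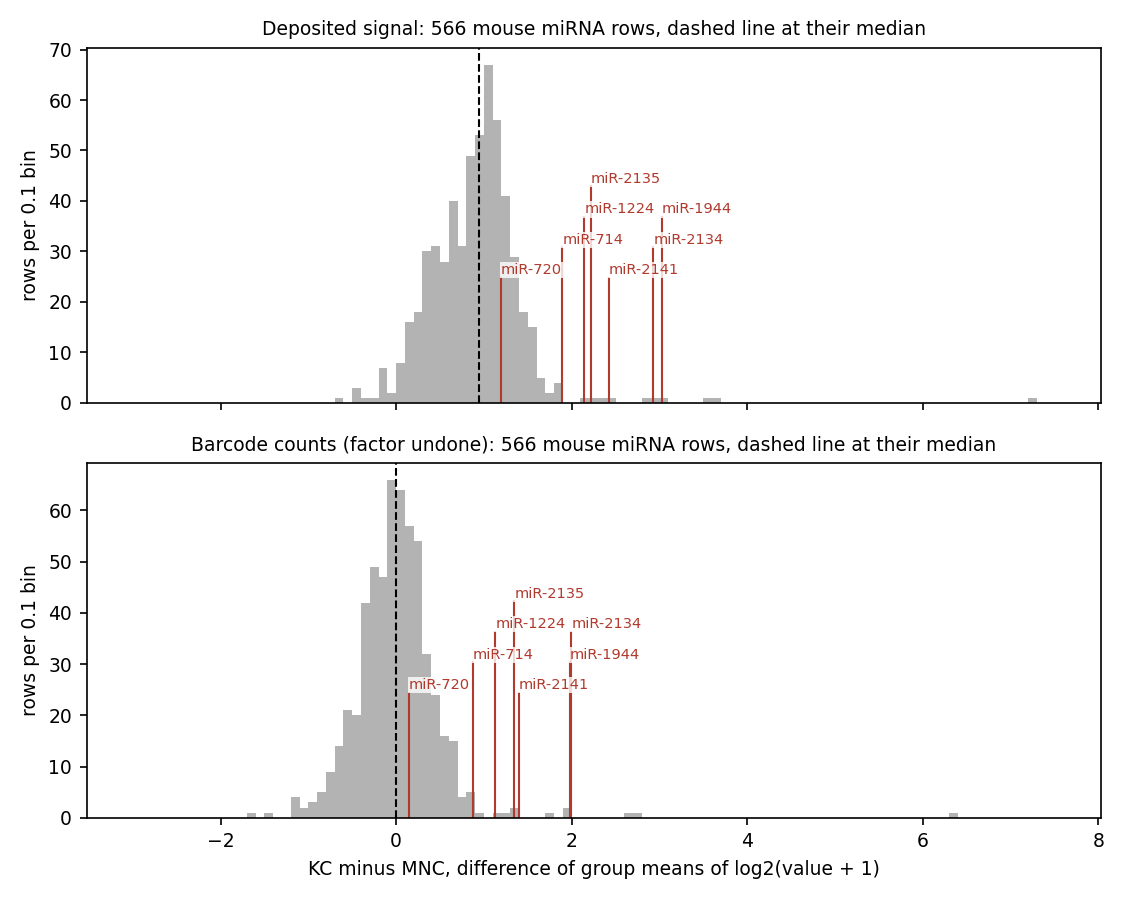
Histograms of the difference KC minus MNC over 566 mouse miRNA rows, in log2(value + 1), for the deposited signal (top) and the barcode counts (bottom), with a dashed line at the median and a labelled line at each of the 7 names. The median moves from 0.94 to 0.00 when the factor is undone, and miR-720 stays close to it while the other 6 names lie to its right.

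The choice of scaling moved every row together, so differences are best read relative to the median of all rows. That median was 0.94 as deposited, 0.00 on barcode counts, -0.14 with samples scaled to the same total over mouse rows, and -1.08 with samples scaled to the positive ligation controls. On counts the differences were 1.98 (SE 0.53) for mmu-miR-1944 and 0.14 (SE 0.72) for mmu-miR-720. The listed counts differed by 1.39 (SE 0.49) for mmu-miR-2141, 1.13 (SE 0.41) for mmu-miR-1224 and 0.87 (SE 0.32) for mmu-miR-714. These 3 names were above background in only 2, 1 and 0 of the 4 MNC samples. With the ligation controls as the scale, the difference was 0.75 (SE 0.54) for mmu-miR-1944, while mmu-miR-720 turned to -1.08. For mmu-miR-2141 the listed values differed by 0.20 (SE 0.49), less than the SE, so no difference is read from them. For mmu-miR-1224 and mmu-miR-714 the listed values differed by -0.05 and -0.31 on that scale, from which no reversal is read, since all rows moved down together and 3 and 4 of the MNC values were at background. mmu-miR-720 also turned negative, to -0.03, with the same total. By rank of the difference among 566 rows, mmu-miR-1944 stayed at 4 or 5 and mmu-miR-720 between 128 and 289 over these scalings. The other names are not ranked, as they were at background in some or all MNC samples.

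**Figure D3:**
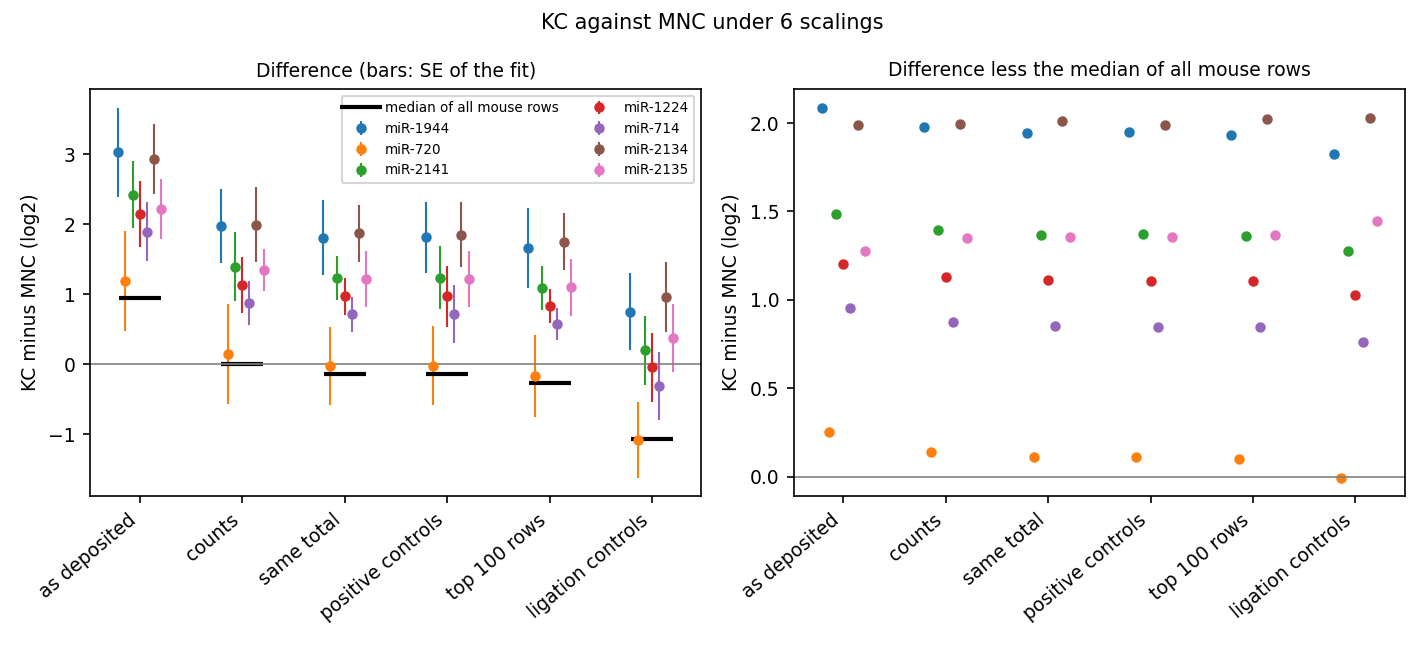
Difference KC minus MNC (log2) of each of the 7 names under 6 scalings, with bars for the SE of the fit and a black bar at the median of 566 mouse rows (left), and the same less that median (right). The values fall with the median from left to right, and miR-720, miR-1224 and miR-714 are below 0 with the ligation controls, miR-720 also with the same total, the positive controls and the top 100 rows, whereas the values less the median change little.

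Single markers of other cell types differed between the groups, with the hepatocyte miRNA mmu-miR-122 higher in KC and the red cell miRNA mmu-miR-451 listed at higher counts in MNC. Of the 4 hepatocyte miRNAs, 3 passed the adjusted threshold as higher in KC, against 24.7% of all rows, and the summed signal of the list was 335 to 1195 in KC and 13.0 to 57.7 in MNC. mmu-miR-122 carried this: it had a signal of 246, 963, 1132 and 681 in KC 1 to KC 4 and was at background in all MNC samples. The other hepatocyte miRNAs that passed, mmu-miR-192 and mmu-miR-194, overlapped between the groups on counts and were above background in 2 and 3 KC samples. mmu-miR-451 had 7, 7, 9 and 6 counts in KC 1 to KC 4, all at background, and 39, 18, 26 and 18 in MNC 1 to MNC 4, of which MNC 1 and MNC 3 were above it. Its counts did not overlap between the groups, although its signal did, and its listed difference lay at -1.58 relative to the median. That of mmu-miR-486 lay at -1.38, but its groups overlapped on signal and counts. Its signal in MNC 1 was 37.1, below every KC sample. mmu-miR-144 was above background in no sample. None of the 3 red cell miRNAs passed the threshold, and their summed signal was 149 to 216 in KC and 61.9 to 586 in MNC. The 2 lymphocyte miRNAs, of which none passed, summed to 99.1 to 280 in KC and 15.3 to 544 in MNC. Relative to the median mmu-miR-150 lay at -1.05 and mmu-miR-181a at 0.30, and both overlapped between the groups. The part of these cells in the levels of the 7 names was not tested.

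Covariation over samples was described on deviations from the group mean of log2(count + 1), over 8 samples, so that the difference between cell types does not enter. On counts all 21 pairs of the 7 names had a positive Pearson r, with a median of 0.44 and a range from 0.03 to 0.92. The samples share their depth, and MNC 1, the shallowest, held the lowest signal of its group for 6 of the 7 names. After scaling to the same total, 10 of 21 pairs were positive and the median was -0.03, with a range from -0.66 to 0.88. Once depth was taken out, positive and negative pairs were about equally many.

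The highest value belonged to the transfer RNA entry and the mirtron. mmu-miR-720 and mmu-miR-1224 had an r of 0.92 (Spearman's rho 0.86) on counts and of 0.88 (rho 0.55) after scaling, with 0.99 within MNC and -0.20 within KC. Without MNC 1 and MNC 3, the samples farthest from the median, the scaled r was -0.07, so it rested on those 2 samples.

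mmu-miR-2134 and mmu-miR-2141, a pair of names from the same numbered series, had a scaled r of 0.58 (rho 0.69), with 0.95 within KC and 0.73 within MNC. Without MNC 2 and MNC 3 it was 0.93. The other pairs of this series did not share this. mmu-miR-2134 and mmu-miR-2135 had a scaled r of 0.31 (rho 0.05), with -0.72 within KC. For mmu-miR-2135 and mmu-miR-2141 it was -0.31 (rho -0.21), with -0.90 within KC. mmu-miR-2134 held only 1 to 23 counts in these samples and mmu-miR-2135 stayed below the mean negative control. These values are therefore a description of sparse counts. mmu-miR-714 had an r of 0.87 (rho 0.68) with the mean negative control on counts and of 0.86 (rho 0.68) with the total over mouse rows, and after scaling to the same total the r with the negative controls was 0.51.

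mmu-miR-1944 went with the positive ligation controls, with an r of 0.85 (rho 0.52) on counts, 0.98 within KC and 0.74 within MNC. KC 4 had the lowest ligation controls of KC, a geometric mean of 1217 counts, and also the lowest mmu-miR-1944. Without KC 4 and MNC 1 the r was -0.20, so the relation rested on these samples. As a share of the geometric mean of the ligation controls, mmu-miR-1944 was 18.0%, 21.5%, 23.3% and 16.6% in KC 1 to KC 4 and 8.81%, 10.5%, 9.63% and 20.7% in MNC 1 to MNC 4. On this measure MNC 4 lay within the range of KC and the other monocyte samples below it. The part of ligation in its difference between cell types was not tested.

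**Figure D4:**
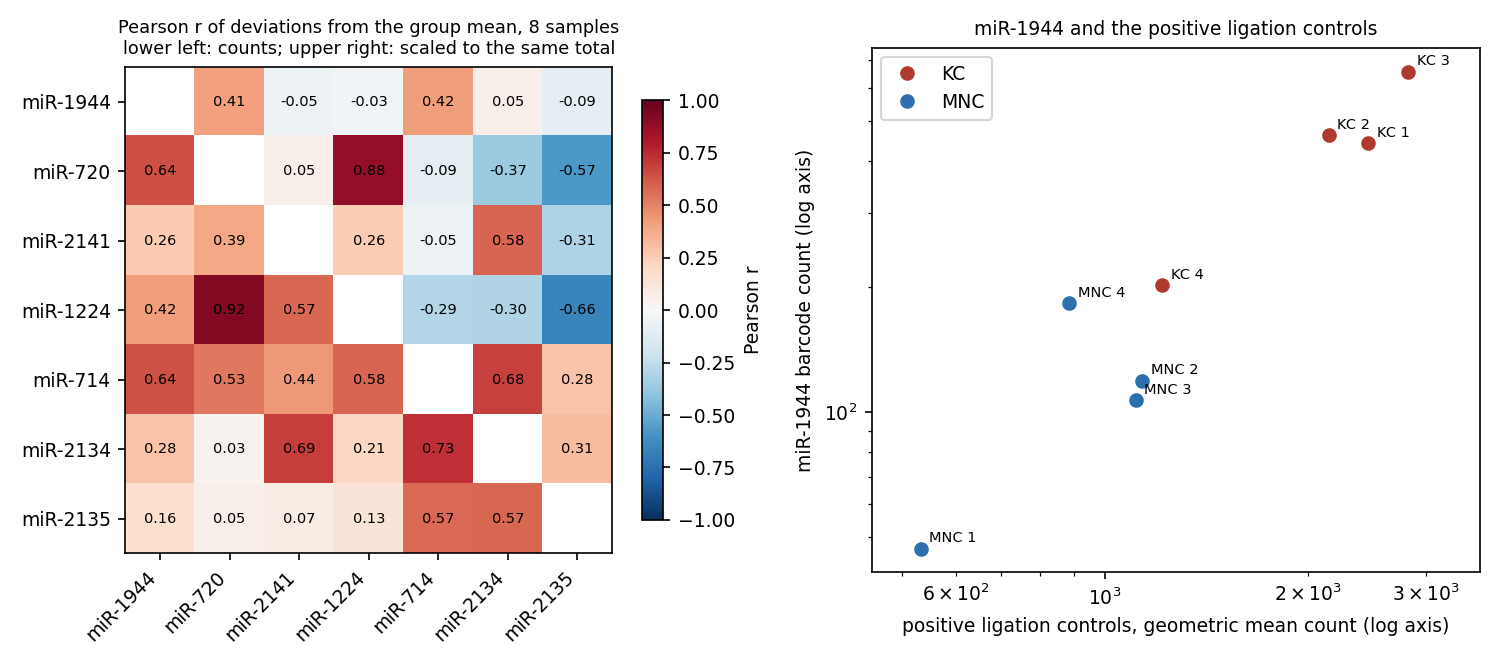
Left, Pearson r between the 7 names over 8 samples, as deviations of log2(count + 1) from the group mean, with barcode counts below the diagonal and counts scaled to the same total above it. Right, barcode count of miR-1944 against the geometric mean count of the positive ligation controls in each sample (both axes log); the lowest KC sample on both axes is KC 4 and the lowest MNC sample is MNC 1.

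The rows most like each name were taken from the 54 or 55 rows that were above background in at least 4 of 8 samples, by the r of scaled deviations over the 8 samples. For mmu-miR-720 these were mmu-let-7b (r 0.93, rho 0.93) and the red cell miRNA mmu-miR-486 (r 0.89, rho 0.69). mmu-miR-486 had 63, 258, 522 and 617 counts in MNC 1 to MNC 4, and mmu-miR-720 was likewise lowest in MNC 1 and second lowest in MNC 2. Without the 2 samples farthest from the median, the r was 0.84 (rho 0.83) for mmu-let-7b and 0.79 (rho 0.31) for mmu-miR-486. Within KC and within MNC it was 0.71 and 0.96 for mmu-let-7b, and -0.21 and 0.94 for mmu-miR-486. For mmu-miR-1224 the rows after mmu-miR-720 began with mmu-miR-2140 (r 0.84), and for mmu-miR-1944 they were mmu-miR-376a (r 0.85) and mmu-let-7c (r 0.78). For mmu-miR-2141 they were mmu-miR-99a (r 0.80) and mmu-miR-367 (r 0.69), for mmu-miR-714 mmu-miR-1929 (r 0.81) and mmu-miR-23a (r 0.70), for mmu-miR-2134 mmu-miR-101b (r 0.90) and mmu-miR-1929 (r 0.81), and for mmu-miR-2135 mmu-miR-539 (r 0.75) and the hepatocyte miRNA mmu-miR-122 (r 0.60). Each of these values is the highest or second highest of that many candidates over 8 samples. mmu-miR-2134 and mmu-miR-2135 were mostly or wholly at background, so their values describe sparse counts. mmu-miR-122 was above background in KC only.

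Other names of these classes were also on the panel. Of 31 further noncanonical names listed, 21 were in the panel under that name. Among these, 7 passed the adjusted threshold as higher in KC, 0 as lower and 14 did not pass, and their median difference was 1.05, or 0.11 above that of all rows. The share of all mouse rows that passed was 24.7%. The 4 other mirtrons, mmu-miR-702, mmu-miR-877, mmu-miR-1981 and mmu-miR-1982, were above background in 0 of 8 samples and none passed, with a median difference of 0.44. Of the 5 mirtron rows, only mmu-miR-1224 was above background in any sample. Of the 10 names traced to ribosomal RNA, 5 passed as higher in KC, and of these mmu-miR-2132 and mmu-miR-2137 were above background in no sample. Of the same 5, mmu-miR-2138 was above it in 1 KC and 1 MNC sample. The names that passed outside this class, mmu-miR-320 and mmu-miR-1839-3p, were likewise above background in no sample. On barcode counts 1 of all 566 rows passed. Only 1 of the 21 was above background in all 4 KC samples, as were 4.42% of all mouse rows. It was mmu-miR-2140, with 47, 35, 31 and 47 counts in KC and 6, 34, 26 and 34 in MNC. The listed signal was 64.4 ± 10.1 for KC against 20.8 ± 11.5 for MNC (SD, n = 4 per group), a difference of 1.89 (SE 0.49), given as a description because the row was named for its level in KC. In MNC only MNC 3 was above background, so the other 3 values are levels of background, and on counts the groups overlapped.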

How the data were processed

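RNA from sorted KC and MNC was read by the authors on an nCounter Mouse miRNA panel (version 1.5), and the values were made with nSolver Analysis Software 4.0. The deposited signal is a barcode count that the authors multiplied by 1 factor per sample, without subtracting background, and listed as 1 where it fell under 1. In KC and in MNC 3 no mouse row was listed as 1. Whether counts of 0 were raised to 1 before the factor was applied is not known. A count of 1, such as that of mmu-miR-2134 in MNC 3, may therefore stand for 0. The study's methods describe a normalization for an mRNA panel, and its results mention miRNAs as references without naming them. The values show a scaling to 4 mRNA rows instead, and how the remark relates to it is not known. Negative and positive controls carry no factor. Division by this factor gave back the counts (within 0.02 of a whole number), but no count model was run, since low counts are hidden by the floor. KC and MNC were compared by limma 3.58.1 in R 4.3.3 (lmFit, eBayes with trend, two-sided) on log2(signal + 1) over 566 mouse rows, modelling the group alone, with p-values adjusted after Benjamini and Hochberg (threshold 0.05), after a run on simulated data. Tables and figures used Python 3.11.15, pandas 2.3.3, scipy 1.17.1 and matplotlib 3.10.9.

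The 7 names and all lists were chosen with earlier results of these data known. Named rows are these 7, the 2 rows most like each, further noncanonical names above background in every sample of a group, and cell type markers. The other mirtrons, mmu-miR-2132 and mmu-miR-2137 fall outside this rule and were named after their values were seen. Alternatives covered 5 other scalings, background handling, a pseudocount of 10, a filter on low rows, other tests, the replicate number as a block, and each sample left out. Nothing in the labels says that the pools of a group were sorted on separate days, so p-values measure the spread between these 4 samples only.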

Additional observations from a re-analysis of the deposited data

Results flagged for a closer look

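In 28 sets of 4 values (7 names, 2 cell types, signal and counts), 1 sample stood apart from the other 3 of its group by Dixon's gap criterion at the 95% level, and chance gives about 5% of such sets. It was the barcode count of mmu-miR-2135 in MNC 2, which was 4 against 2 in each of the other monocyte samples, a gap of 1 times the whole range. All 4 of these counts lay below the mean negative control of their sample.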

How the results depend on the processing

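The number of mouse rows called between KC and MNC, 140 as deposited, depended on the scaling: 1 on barcode counts, 9 with the same total, 5 with the positive controls, 7 with the 100 highest rows and 261 with the ligation controls, of which 258 were lower in KC. It was 555 with values raised to the highest negative control, 332 with the mean negative control subtracted, 252 with a pseudocount of 10, 243 by the 2-fold rule and 0 by the exact Mann-Whitney test, whose smallest p here is 0.0286. Leaving out 1 sample gave 26 to 176 calls (33 without KC 1, 26 without KC 2, 41 without KC 4). With the replicate block it was 198. Same-numbered samples had correlations of only 0.02 to 0.10, although 3 KC samples correlated best with the MNC sample of their own number. Whether the numbers mark pairs is not known, and the main fit did not use them as pairs. The median of the 7 names relative to all rows, 1.28, is the value of mmu-miR-2135, a name at background, and is a description only. It became 0.66 with values raised to the highest negative control, 2.11 with the mean negative control subtracted and 0.98 with a pseudocount of 10. Single names moved too when the mean negative control was subtracted. Relative to the median, mmu-miR-1224 rose from 1.20 to 2.35, mmu-miR-2141 from 1.48 to 2.51 and mmu-miR-714 from 0.96 to 2.11. At the same setting mmu-miR-2134 fell from 1.99 to 1.03 and mmu-miR-2135 from 1.28 to 0. With the mean negative control as the limit, 4 names and not 2 were above background in all MNC samples. The difference of mmu-miR-720 turned to -0.027 with the same total, -1.08 with the ligation controls, -0.021 with the positive controls and -0.17 with the 100 highest rows. Relative to the median it turned to -0.0039 with the ligation controls, and ran from -0.37 (without MNC 1) to 0.79 with 1 sample left out. With the ligation controls, which moved the median of all rows to -1.08, the listed values gave -0.047 for mmu-miR-1224 and -0.31 for mmu-miR-714, most or all of whose MNC values were at background, so no reversal is read from them. The cause was not tested. No other difference of a single name reversed under the alternatives run. Counts near the negative controls limit what can be said of mmu-miR-2134, mmu-miR-2135 and, in MNC, mmu-miR-714 and mmu-miR-1224.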
